A study of Homo sapiens with 15 samples.

Results

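The 10 genes described here form the negative feedback and the ETV transcriptional output of the MAPK pathway: DUSP4, DUSP5, DUSP6, SPRY2, SPRY4, SPRED1, SPRED2, ETV4, ETV5 and PHLDA1. They were measured across 5 conditions of a human lung adenocarcinoma line. The genes were taken by symbol from a deposited table of 19612 genes, all 10 symbols were found, and all 10 passed the filter on low counts in both fits. Estimated read counts were compared between H1975 cells given vehicle (Samples 1a to 1c), a line whose EGFR carries T790M and L858R, and its osimertinib-resistant derivative H1975–OR, which carries the same alleles. The resistant cells received vehicle (2a to 2c), the active vitamin D hormone 1,25(OH)2D3 at 100 nM (3a to 3c), 500 nM osimertinib, an inhibitor of mutant EGFR (4a to 4c), or both agents at these doses (5a to 5c). All 5 conditions were exposed for 96 h in medium with charcoal-stripped serum, with doses at 0, 48, and 92 h. H1975–OR is a single subline that was selected and then maintained in 500 nM osimertinib. Its vehicle and 1,25(OH)2D3 conditions are therefore resistant cells held without the drug for 96 h, and osimertinib-treated H1975 cells were not analysed here.

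EGFR and other receptors activate RAS, RAF, MEK and ERK in turn, and active ERK raises transcription of genes that damp the same cascade. Among these, DUSP6 is a cytoplasmic phosphatase of ERK, DUSP4 and DUSP5 are nuclear phosphatases of MAP kinases, and the Sprouty proteins (SPRY2, SPRY4) and the related SPRED proteins (SPRED1, SPRED2) hold back RAS and RAF activation. ETV4 and ETV5 are ETS-family transcription factors whose transcripts are widely used as a readout of ERK activity, and PHLDA1 encodes a pleckstrin homology domain protein whose transcript is also induced through this pathway.

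The libraries held between 4378030 and 6140120 counts each, and the lowest count of any of the 10 genes in any library was 14, so every gene was detected in every library. Levels are given as CPM, counts scaled to a common library total, after TMM scaling over all 15 libraries, and they are not corrected for transcript length, so they are compared between conditions and not between genes. Sample 3a, which the authors excluded as atypical, was left out of every fit and every mean here too, which leaves n = 2 with 1,25(OH)2D3. Sample 3a also had the lowest mean correlation with its own condition of all 15 libraries (r = 0.912, against 0.935 to 0.965 for the other 14). The values of Samples 3b and 3c include their correlation with 3a. The vitamin D target CYP24A1 lay between 3.31 and 25.6 CPM in the 9 libraries without 1,25(OH)2D3 and rose by 7.71 on the log2 scale with it (adjusted p = 0.000183). Summed epithelial markers (EPCAM, CDH1, KRT8, KRT18, KRT19), of which KRT18 was the highest in each condition, lay between 2607 and 4196 CPM, and those of blood, endothelial and liver cells (PTPRC, PECAM1, ALB) between 1.23 and 5.02 CPM.

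On GRCh38 the genes are spread over 9 chromosomes. DUSP6 (chr12:89347235-89352501, minus strand, 3 exons in its canonical transcript) and PHLDA1 (chr12:76025447-76031776, minus strand, 2 exons) lie on chromosome 12, and SPRY2 (chr13:80335976-80341126, minus strand, 2 exons) on chromosome 13. RefSeq promoter windows were used for 6 of the 10 genes, 9 windows in all. No window was searched for DUSP4, DUSP5, ETV4 or ETV5, so the motif counts below say nothing of their promoters. The 250 bases ahead of the start site are shown, 5′ to 3′, for a gene that was low in 2 letter a libraries described further on (DUSP6), for one that fell in the resistant line (PHLDA1) and for one that rose there (SPRY2). Capitals mark GGGCGG, the SP1 motif, on either strand.
DUSP6 (chr12:89352502-89352751, minus strand, GRCh38.p14): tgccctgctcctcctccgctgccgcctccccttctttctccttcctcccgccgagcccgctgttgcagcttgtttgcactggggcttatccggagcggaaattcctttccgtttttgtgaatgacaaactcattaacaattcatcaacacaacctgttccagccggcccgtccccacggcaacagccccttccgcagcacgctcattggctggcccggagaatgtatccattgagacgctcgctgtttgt
PHLDA1 (chr12:76031777-76032026, minus strand): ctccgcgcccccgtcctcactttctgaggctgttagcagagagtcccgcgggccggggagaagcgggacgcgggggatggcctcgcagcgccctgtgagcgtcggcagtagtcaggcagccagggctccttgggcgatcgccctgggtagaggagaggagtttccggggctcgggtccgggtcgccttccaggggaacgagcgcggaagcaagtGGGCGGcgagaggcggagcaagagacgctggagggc
SPRY2 (chr13:80341127-80341376, minus strand): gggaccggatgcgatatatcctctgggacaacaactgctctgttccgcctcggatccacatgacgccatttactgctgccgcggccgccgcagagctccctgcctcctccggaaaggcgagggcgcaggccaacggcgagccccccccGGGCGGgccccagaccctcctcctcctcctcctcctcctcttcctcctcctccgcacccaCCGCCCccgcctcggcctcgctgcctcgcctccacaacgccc

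A set of 4 motifs was searched on both strands of these windows, each counted on its own. TGACGTCA (the CRE), TGANTCA (AP-1) and CCGGAAG (an ETS core) were in none of the 9 windows, and they occur in 1.65%, 6.57% and 8.52% of all 35116 promoter windows of the same length. GGGCGG occurs in 42.6% of all windows and was found in 4 of the 9 windows. It was there 2 times in the SPRY2 window shown and 1 time each in those of PHLDA1, SPRY4 and SPRED1, and it was not found in the other 2 SPRY2 windows, the 2 SPRED2 windows or that of DUSP6. These matches describe the letters in the windows alone.

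The first comparison asked how the resistant line differs from its parent when neither is given an agent. Of the 10 genes, 2 rose and 3 fell in H1975–OR. Among all 12513 genes tested, 9.89% rose and 10.3% fell, so many genes differ between the lines. The median log2 fold change of the 10 genes was 0.0013, against 0.0061 over all genes, with 5 estimates above and 5 below 0. In bulk RNA, a change within each cell and a change in the mixture of cells cannot be told apart. Epithelial markers moved with the same comparison. CDH1, EPCAM and KRT19 fell in H1975–OR (log2 fold changes -5.11, -3.69 and -1.74, adjusted p = 0.000557, 0.000596 and 0.00246), KRT18 rose (0.38, adjusted p = 0.0328) and KRT8 did not pass the threshold (-0.07). Of 3 mesenchymal genes, ZEB1 rose (3.02, adjusted p = 0.0318), VIM was at 0.51 (adjusted p = 0.0763) and CDH2 was not tested. The part of this shift in the levels of the 10 genes was not tested.

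The 2 nuclear phosphatases were lower in the resistant line. DUSP4 measured 41.2, 53.8 and 43.3 CPM in Samples 1a to 1c and 15.1, 13.2 and 15.6 CPM in Samples 2a to 2c, with no overlap. The fold change was -1.64 on the log2 scale (SE 0.21, adjusted p = 0.00182 by edgeR's quasi-likelihood test). DUSP5 measured 30.8, 50.3 and 57.2 CPM in H1975 and 21.5, 22.5 and 18.7 CPM in H1975–OR, again without overlap, and its log2 fold change was -1.12 (SE 0.24, adjusted p = 0.0124). PHLDA1 fell as well, from 103, 158 and 169 CPM to 44.4, 43.8 and 62.3 CPM (log2 fold change -1.50, SE 0.22, adjusted p = 0.00331), and the 2 sets of libraries did not overlap.

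SPRY2 and ETV5 rose. SPRY2 measured 31.7, 26.1 and 34.0 CPM in H1975 and 61.4, 83.3 and 91.6 CPM in H1975–OR, a log2 fold change of 1.38 (SE 0.18, adjusted p = 0.0018), and each resistant library was higher than each parental one. ETV5 measured 44.7, 45.0 and 38.5 CPM in H1975 and 48.9, 119 and 108 CPM in H1975–OR. Its log2 fold change was 1.12 (SE 0.29, adjusted p = 0.0288), but Sample 2a lay only just above the parental range. The ETV5 call was lost in 8 of 13 alternative analyses, among them each of the 5 fits that left out a library other than 2a (adjusted p between 0.0653 and 0.0979).

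The other 5 genes did not pass the threshold. DUSP6 measured 16.6, 21.2 and 22.8 CPM in H1975 and 3.89, 18.6 and 27.6 CPM in H1975–OR, so the resistant libraries spread on both sides of the parental ones (log2 fold change -0.26, 95% interval -1.50 to 0.99). SPRY4 measured 8.49, 8.75 and 12.6 CPM in H1975 and 3.89, 19.7 and 46.9 CPM in H1975–OR (1.25, interval -0.34 to 2.85). In both genes Sample 2a was the lowest of the 6 libraries. ETV4 (0.26), SPRED1 (0.26) and SPRED2 (-0.79) had adjusted p between 0.139 and 0.696. Without Sample 2a, 7 of the 10 genes were called (background 10.7% higher and 12% lower of the genes tested), the added ones being SPRY4 (log2 fold change 1.74, adjusted p = 0.0246) and ETV4 (0.65, adjusted p = 0.0429), and DUSP6 turned to 0.19.

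**Figure D1:**
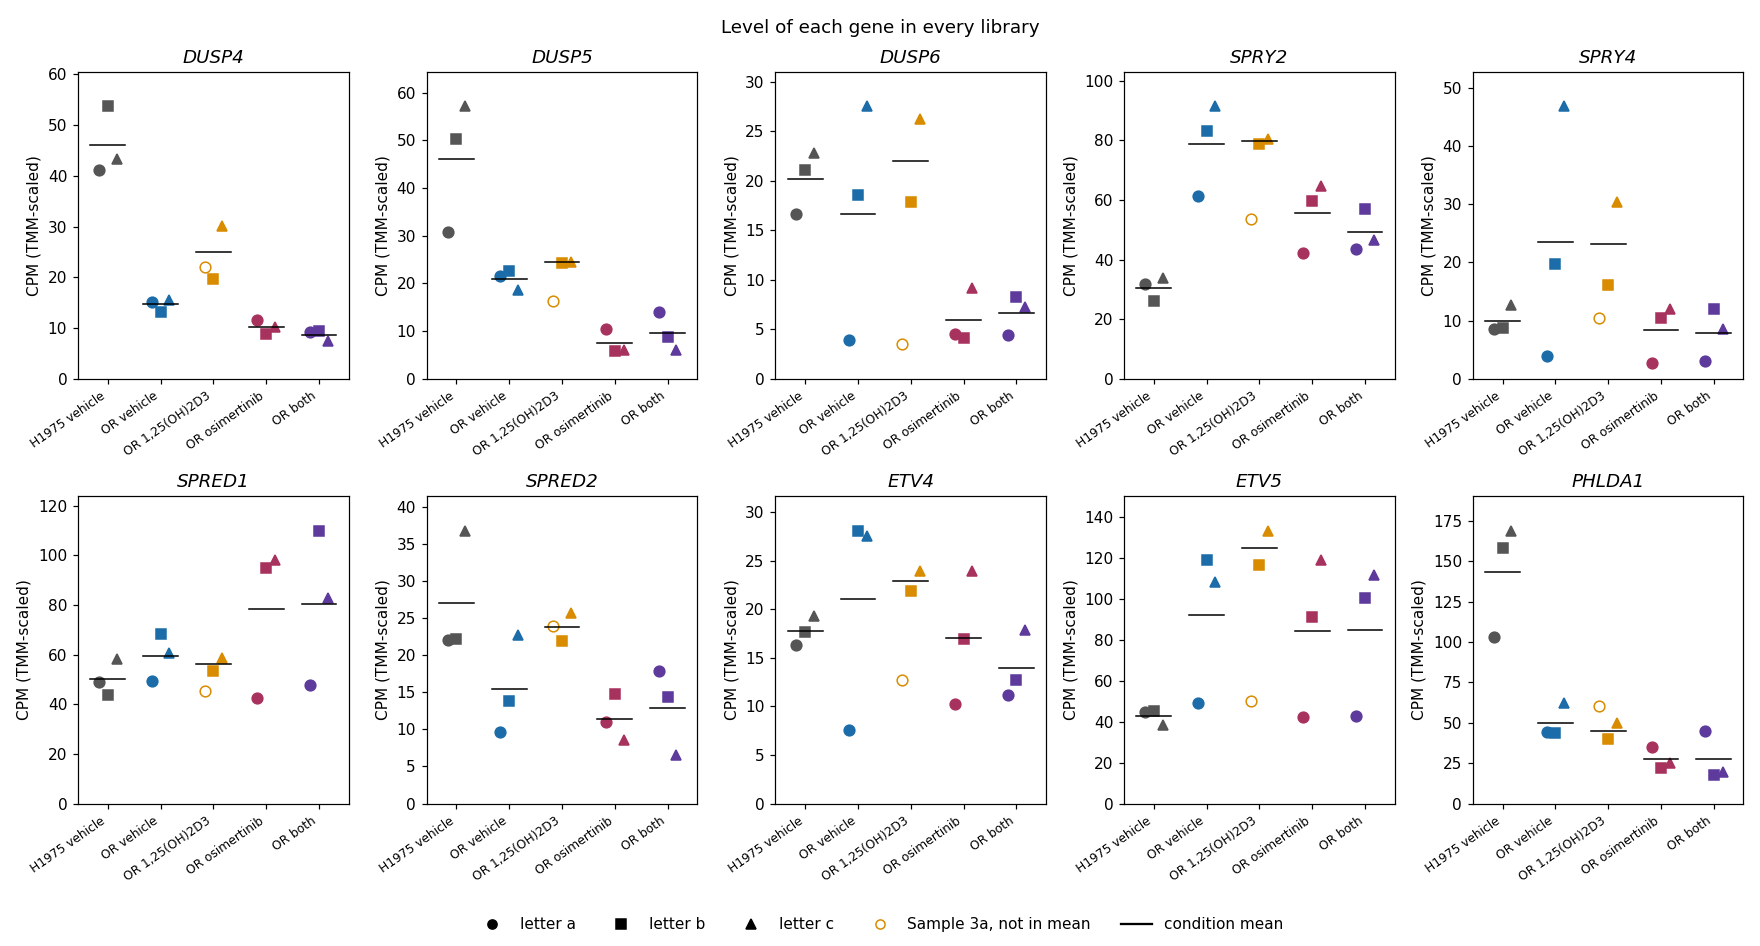
Level of each of the 10 genes in every library, in CPM on a linear axis from 0, by condition. Symbols give the replicate letter, black bars the condition means (n = 3, or 2 with 1,25(OH)2D3) and the open circle Sample 3a. DUSP4 lay between 41.2 and 53.8 CPM in H1975 and at 15.6 CPM or less in vehicle-treated H1975–OR.

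**Figure D2:**
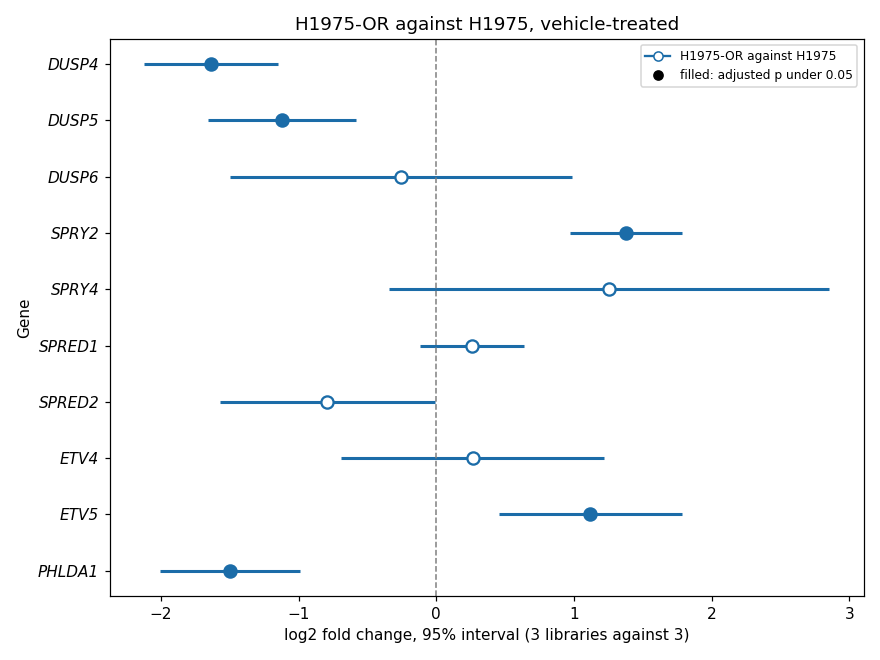
Log2 fold change of each gene in vehicle-treated H1975–OR against H1975 with its 95% interval, filled where the adjusted p was under 0.05. SPRY2 and ETV5 are filled on the right of 0, and DUSP4, DUSP5 and PHLDA1 on the left.

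Relatives and neighbours of these genes in the pathway also moved both ways in the resistant line. Of 16 feedback relatives, 12 were tested, and 4 rose and 4 fell. DUSP1, a nuclear MAP kinase phosphatase, rose (log2 fold change 1.39, adjusted p = 0.00793), and so did the ETS factor ETV1 (1.51, adjusted p = 0.0487). DUSP10, a phosphatase of p38 and JNK, fell (-1.41, adjusted p = 0.0343), and PHLDA3 fell from between 14.9 and 36.4 CPM to between 0.386 and 1.23 CPM, which is 2 to 6 counts per library. Its fitted log2 fold change of -5.32 (adjusted p = 0.00066) rests on these few counts. The median log2 fold change of the 12 was 0.10.

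Of 19 ERK cascade components, all tested, 2 rose and 1 fell. The exchange factor SOS2 rose (log2 fold change 0.64, adjusted p = 0.00976), and the RAS GTPase-activating protein RASA1 fell (-0.43, adjusted p = 0.0483). The median was -0.13. Of 22 other transcripts known to follow ERK activity, 19 were tested, and 3 rose and 3 fell, with a median of -0.10. HBEGF, an EGFR ligand, rose from 27.4, 36.1 and 21.6 CPM to 129, 180 and 306 CPM (log2 fold change 2.87, adjusted p = 0.00133). The ephrin receptor gene EPHA4 also rose (2.30, adjusted p = 0.00154), the AP-1 subunit gene FOSL1 fell (-1.32, adjusted p = 0.00412), and VGF fell to between 2 and 5 counts per library (-2.95, adjusted p = 0.0143).

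The second comparison asked what 1,25(OH)2D3 did in the resistant cells, and 0 of the 10 genes passed the threshold by edgeR or DESeq2, while 1, DUSP4, had an unadjusted value under 0.05. Of all 12513 genes tested, 0.152% rose and 0% fell, and 456 higher and 454 lower were under 0.05 before adjustment. DUSP4 had the highest fold change of the 10, with 19.8 and 30.1 CPM in Samples 3b and 3c against 15.1, 13.2 and 15.6 CPM with vehicle. These libraries did not overlap, which was not set against all genes and with 2 libraries against 3 says little. The log2 fold change of 0.77 had an adjusted p of 0.492 (95% interval 0.23 to 1.30). SPRED2 was at 0.63 (interval -0.23 to 1.49) and the other 8 genes lay between -0.15 and 0.44. The median of the 10 was 0.17, against -0.01 over all genes. None of the genes in the 3 pathway lists was called. Of the marker genes tested, CDH1 rose (4.22, adjusted p = 0.024), and its part in these values was not tested.

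Osimertinib was compared with vehicle in cells without 1,25(OH)2D3, to see how the feedback genes respond when EGFR is inhibited in the resistant line. Again 0 of the 10 genes passed the threshold by edgeR, as did few genes in all (0.032% higher and 0.016% lower). Before adjustment 4 of the 10, all lower, were under 0.05, as were 453 higher and 488 lower of the 12503 genes tested. DESeq2 called 1 of the 10, DUSP5 (adjusted p = 0.0114), and 61 higher and 56 lower genes in all. Of the 10 estimates, 9 were negative, with a median log2 fold change of -0.51 against 0.01 over all genes. DUSP5 measured 10.5, 5.94 and 6.14 CPM with osimertinib against 21.5, 22.5 and 18.7 CPM with vehicle, with no overlap (log2 fold change -1.47, 95% interval -2.21 to -0.72, adjusted p = 0.271). PHLDA1 likewise measured 34.8, 21.9 and 25.2 CPM against 44.4, 43.8 and 62.3 CPM, and every osimertinib library was lower than every vehicle library (-0.87, interval -1.64 to -0.10, adjusted p = 0.585). DUSP4 measured 11.6, 8.80 and 10.2 CPM against 15.1, 13.2 and 15.6 CPM, also without overlap (-0.52, interval -1.05 to 0.02, adjusted p = 0.673). The share of all genes without overlap was not counted, so these separations are a description and add nothing to the tests.

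DUSP6 and SPRY4 had the same estimate, -1.48, with much wider intervals (-2.83 to -0.14 and -3.30 to 0.33). DUSP6 was at 4.57, 4.10 and 9.20 CPM with osimertinib and at 3.89, 18.6 and 27.6 CPM with vehicle. It was low in both letter a libraries, and the letter b and c libraries carried the difference. SPRY2 measured 42.2, 59.6 and 64.8 CPM with osimertinib against 61.4, 83.3 and 91.6 CPM with vehicle. These ranges overlap, while within letters a, b and c the osimertinib library differed from the vehicle library by -0.52, -0.47 and -0.49 in log2(CPM + 2). SPRED1 was the one gene with a positive estimate (0.40, interval -0.35 to 1.15).

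The same question in the presence of 1,25(OH)2D3, both agents against 1,25(OH)2D3 alone, used different libraries, although both comparisons come from one fit and share its estimate of the spread. Once more 0 of the 10 genes were called by edgeR (0.12% of all genes higher and 0.136% lower). Under 0.05 before adjustment were 4 of the 10, all lower, and 721 higher and 731 lower of the 12503 genes tested. DESeq2 called 2 of the 10, DUSP4 (adjusted p = 0.000361) and DUSP5 (adjusted p = 0.0365), and 165 higher and 164 lower genes in all. Here too 9 of the 10 estimates were negative, with a median of -0.80 against 0.02 over all genes. DUSP4 came closest to the threshold. It measured 9.22, 9.40 and 7.55 CPM with both agents against 19.8 and 30.1 CPM with 1,25(OH)2D3 (log2 fold change -1.52, 95% interval -2.11 to -0.93, adjusted p = 0.0537). DUSP5 measured 14.04, 8.70 and 6.13 CPM against 24.3 and 24.5 CPM (-1.34, adjusted p = 0.179). DUSP6 measured 4.41, 8.23 and 7.31 CPM against 17.8 and 26.2 CPM (-1.74, adjusted p = 0.34), and SPRED1 was again positive (0.51).

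The same 9 genes were lower in both comparisons, as were 31.5% of all genes tested. DUSP5, DUSP6, SPRY4, PHLDA1, DUSP4 and SPRY2, 6 of the 10, were below -0.5 in both, against 4.10% of all genes. SPRY2 (-0.501) and DUSP4 (-0.516) lay at this cut without 1,25(OH)2D3. Leaving out 1 library took SPRY2 to -0.33 (without 4a) and DUSP4 to -0.42 (without 4b), so the count of 6 rests on them. The 10 genes were chosen with earlier results of these data known, so their shares beside those of all genes are a description and no test. In an analysis added after these values were seen, the osimertinib effect was averaged over both backgrounds, and 2 of the 10 genes fell (background 0.976% lower), DUSP4 (log2 fold change -1.02, adjusted p = 0.0245) and DUSP5 (-1.40, adjusted p = 0.0238). With the replicate letter as a block, 4 of the 10 fell (background 3.72%), adding SPRY2 (-0.53, adjusted p = 0.0158) and PHLDA1 (-0.96, adjusted p = 0.0349), while DUSP6 (-1.30) had an adjusted p of 0.0584. With the block, both agents against 1,25(OH)2D3 gave calls for DUSP4 (adjusted p = 0.0386) and DUSP5 (adjusted p = 0.0429), where 0.648% of all genes were lower, but only 2 letters pair these conditions.

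**Figure D3:**
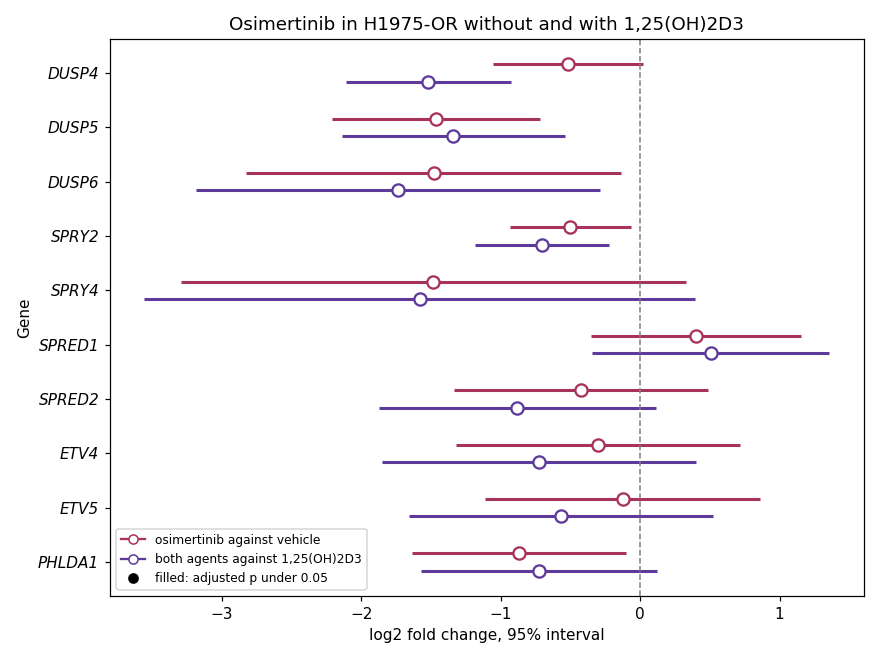
Log2 fold change of each gene with osimertinib, against vehicle (3 libraries against 3) and, in the presence of 1,25(OH)2D3, against 1,25(OH)2D3 alone (3 against 2), with 95% intervals. No point is filled, since no adjusted p was under 0.05, and SPRED1 alone lies to the right of 0 in both.

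Of the pathway lists, ERRFI1, which encodes a feedback inhibitor of EGFR itself, was the one gene called in the osimertinib comparisons. It fell with both agents against 1,25(OH)2D3, from 418 and 472 CPM to 116, 152 and 136 CPM (log2 fold change -1.73, adjusted p = 0.0392). For osimertinib against vehicle the ERRFI1 estimate was also negative but not called (-1.44, adjusted p = 0.103). The feedback relatives had median log2 fold changes of 0.24 without and -0.13 with 1,25(OH)2D3, the first of them opposite in sign to the -0.51 of the 10 genes. The ERK cascade components had medians of 0.19 without and 0.13 with 1,25(OH)2D3, and the other transcripts that follow ERK activity had medians of -0.29 and -0.26.

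Adding 1,25(OH)2D3 to osimertinib gave 0 calls among the 10 genes by edgeR or DESeq2 (by edgeR 0.056% of all genes higher, 0.04% lower). Of the 12503 genes tested, 259 higher and 261 lower were under 0.05 before adjustment, with 0 of the 10 genes among them. Their log2 fold changes lay between -0.30 (ETV4) and 0.35 (DUSP5), with a median of -0.0010. The intervals remained wide, for example -1.22 to 1.51 for DUSP6 and -0.78 to 0.31 for DUSP4, so equal levels were not shown. CDH1 rose here too (log2 fold change 3.42, adjusted p = 0.00929). For the interaction of the 2 agents, 0 of the 10 genes were called by edgeR or DESeq2, and 0% of all genes rose and 0% fell by edgeR. Before adjustment 153 higher and 177 lower genes were under 0.05, 1 of the 10 genes among them, and DESeq2 called 11 genes in all. DUSP4 had the strongest estimate (-1.003, interval -1.80 to -0.20, adjusted p = 1.00).

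By condition mean, 4 of the 10 genes (DUSP4, DUSP5, SPRED2, PHLDA1) were highest in H1975 and 4 (DUSP6, SPRY2, ETV4, ETV5) with 1,25(OH)2D3, while 7 were lowest with osimertinib or both agents. These counts were not set against all genes, and the 1,25(OH)2D3 means rest on 2 libraries. With 1,25(OH)2D3 and vehicle, SPRY2 was at 79.8 and 78.8 CPM and ETV4 at 22.9 and 21.1 CPM. The means with osimertinib and with both agents were neighbours in the order of condition means for each gene. For 9 of the genes, all but DUSP4, these means differed by less than the larger standard deviation, a count not set against all genes. For DUSP4 they were 10.2 ± 1.40 and 8.73 ± 1.02 CPM (SD, n = 3), below 14.7 ± 1.26 CPM with vehicle and 46.1 ± 6.72 CPM in H1975. SPRY4 was at 23.5 ± 21.7 CPM with vehicle (SD, n = 3), where the standard deviation nearly equals the mean.

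Within conditions the letter a library often differed from letters b and c, in a direction that varied by gene. The letter a library was lower than both others for 7 of the 10 genes in H1975, vehicle-treated and 1,25(OH)2D3-treated H1975–OR alike, and for 5 and 6 with osimertinib and both agents, against between 34.4% and 40.7% of all genes by condition. With 1,25(OH)2D3 this library is Sample 3a. In vehicle-treated H1975–OR the difference from the mean of b and c ranged from -2.47 (SPRY4) to 0.07 (DUSP4) in log2(CPM + 2), and in H1975 from -0.76 (DUSP5) to 0.10 (ETV5). DUSP6 was at 3.89 CPM in Sample 2a and 3.50 CPM in Sample 3a, against 17.8 to 27.6 CPM in 2b, 2c, 3b and 3c. ETV5 differed by -1.18, -1.28, -1.26 and -1.26 in the vehicle, 1,25(OH)2D3, osimertinib and combined conditions, and by 0.10 in H1975. In the osimertinib conditions DUSP5 and PHLDA1 were instead higher in letter a, by between 0.53 and 1.18. What libraries of one letter share is not stated, and its part in these levels was not tested.

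**Figure D4:**
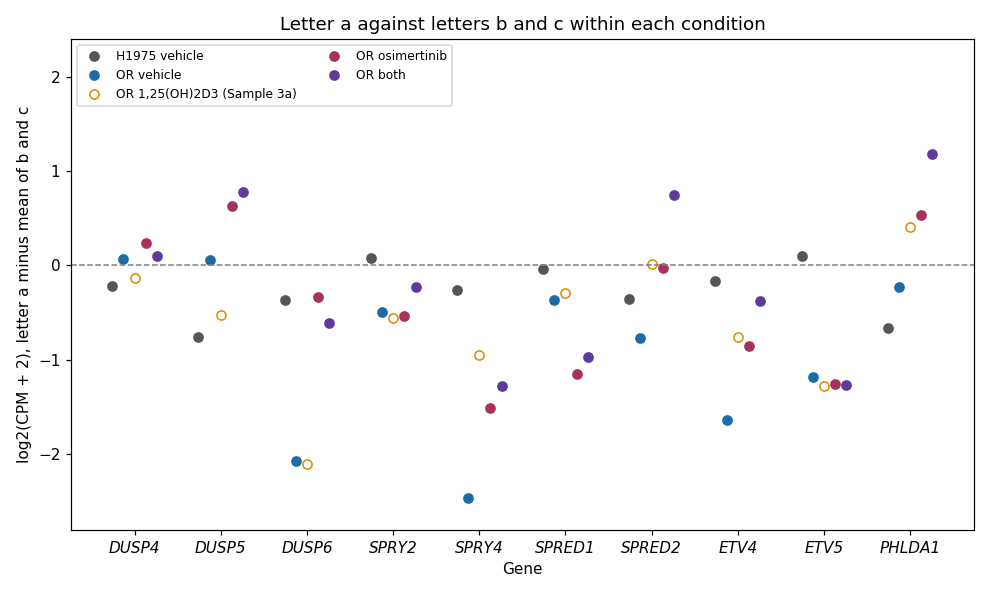
Letter a library minus the mean of the letter b and c libraries in log2(CPM + 2), for each gene and condition, with 0 as a dashed line. The H1975–OR points of DUSP6, SPRY4, ETV4, ETV5, SPRY2 and SPRED1 lie below 0 and the osimertinib points of DUSP5 and PHLDA1 above it.

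Over the 11 H1975–OR libraries without Sample 3a, deviations from the condition mean were most alike for SPRY2 and SPRY4 (r = 0.917), SPRED1 and ETV5 (r = 0.894) and DUSP6 and SPRY4 (r = 0.892). The most opposed were DUSP5 and ETV5 (r = -0.787), DUSP5 and SPRED1 (r = -0.780) and SPRED1 and PHLDA1 (r = -0.768). Of all 45 pairs, 26 were positive, with a median r of 0.304. DUSP5 and DUSP6, both ERK phosphatases, gave -0.320, so the genes did not vary as one group. Libraries of one letter share more than these genes, and the values are a description. Over all 14 libraries the gene most like DUSP6 was TRIB2, which encodes a Tribbles pseudokinase (r = 0.971 in log2(CPM + 2)), followed by WARS (0.932), ACIN1 (0.922), RHOB (0.920) and MPRIP (0.916). TRIB2 was at 2.05 CPM in Sample 2a against 17.99 and 27.4 CPM in 2b and 2c.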

How the data were processed

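RNA from 15 cultures (5 conditions, 3 libraries each) was sequenced as stranded total RNA, paired-end, on a NextSeq500. The authors assigned reads to hg38 transcripts with Kallisto (0.43.0 in the submitters' processing notes, which also list STAR 2.5.2b and CASAVA 1.8.2 without a role) and summed them to genes with tximport. The deposited values are these estimated counts, before any correction for depth or length. The transcript annotation and tximport settings are not given in the sources used here. Passages are stated as separate for Samples 1a to 3c, and for the other libraries the p-values measure the spread between these libraries, which may be technical.

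Values were rounded to integers, and edgeR 4.0.16 under R 4.3.3 was used (filterByExpr with minimum count 10 and minimum total 15, TMM, quasi-likelihood test, Benjamini-Hochberg adjustment over all genes tested, threshold 0.05). A gene is called when its adjusted p is under this threshold. H1975–OR against H1975 and 1,25(OH)2D3 against vehicle used 1 fit of 8 libraries (12513 genes), and the osimertinib comparisons and the interaction 1 fit of the 11 H1975–OR libraries (12503 genes), both without Sample 3a. Standard errors and 95% intervals were derived from the test statistic.

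The 10 genes and the pathway lists were chosen with earlier results of these data known, and the lists come from general knowledge. All 10 genes are named in every comparison, and at most 4 called genes per list, those with the largest fold change. A list gene that this rule names is not reported here. Correlations used log2(CPM + 2). The floor of 3 counts corresponds to between 0.489 and 0.685 CPM and covers counting error only. Promoter sequence is RefSeq's on GRCh38.p14, and gene positions are from GENCODE on GRCh38.

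The fits above hold no letter term. In a check, deviations from the group means of the vehicle, osimertinib and combined H1975–OR libraries correlated in each letter, so the blocked values are given where they change a call (vehicle with osimertinib r = 0.310, 0.124 and 0.197, osimertinib with both agents 0.464, 0.276 and 0.258). Alternatives were DESeq2 1.42.0, RLE size factors, no filter, Sample 3a kept in, the letter as a block, all 14 libraries other than 3a in 1 fit, and each library left out.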

Additional observations from a re-analysis of the deposited data

Results flagged for a closer look

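Sample 3a, the 1,25(OH)2D3 library left out of every fit, held levels above every vehicle-treated H1975–OR library for 2 of the 10 genes. They are listed because the library is outside the comparisons, and the same held for 34.3% of all genes, so the count is no result about the 10. DUSP4 was at 22.1 CPM in it, against at most 15.6 CPM with vehicle, and between the 19.8 and 30.1 CPM of Samples 3b and 3c. SPRED2 was at 24.0 CPM, against at most 22.8 CPM with vehicle, and also lay between 3b and 3c (21.9 and 25.6 CPM). Neither level was tested, and with 3a kept in neither gene was called for 1,25(OH)2D3 against vehicle.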

How the results depend on the processing

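Across the alternatives, the falls of DUSP4, DUSP5 and PHLDA1 and the rise of SPRY2 in H1975–OR against H1975 kept their direction and their side of the threshold in all 13. Under RLE size factors no value changed its direction or its side. The lowest member count was 14, so depth limits the low genes such as SPRY4 and DUSP6 most. The number of all genes called moved between alternatives, and some fold changes of the 10 genes changed sign. The causes of the changes below were not tested. Deviations from the group means showed little correlation by letter between H1975 and vehicle-treated H1975–OR (0.022, -0.030 and 0.011). Conditions compared with 1,25(OH)2D3 alone share only letters b and c.

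With DESeq2 the genes called were 117 for osimertinib against vehicle, 329 for both agents against 1,25(OH)2D3, 66 for both agents against osimertinib, 124 for 1,25(OH)2D3 against vehicle and 11 for the interaction. It called 1 of the 10 genes in the first of these and 2 in the second. With the replicate block the counts were 35, 183, 33 and 9 for the first 4 of these comparisons, and 2 of the 10 genes were called for both agents against 1,25(OH)2D3. In H1975–OR against H1975 the block gave SPRED2 an adjusted p of 0.0489 and ETV5 one of 0.0521, and it changed no other call of the 10 genes. With all 14 libraries in one fit the counts were 12, 71 and 29 for osimertinib against vehicle, both agents against 1,25(OH)2D3 and 1,25(OH)2D3 against vehicle, and 1 of the 10 genes, DUSP4, was called in the second. With Sample 3a kept in, 1636 genes were called between the lines, 12 for both agents against 1,25(OH)2D3 and 5 for both agents against osimertinib. Without the filter 32 were called for 1,25(OH)2D3 against vehicle.

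The following were chosen after seeing the data. Without the letter a libraries of H1975–OR, 80 genes were called for osimertinib against vehicle and 207 for both agents against 1,25(OH)2D3, 1 of the 10 genes, DUSP5, among them. The osimertinib effect averaged over both backgrounds gave 255 genes and 2 of the 10, and with the replicate block 931 genes and 4 of the 10. In the 11 H1975–OR libraries with the block, 48 genes were called for 1,25(OH)2D3 against vehicle.

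Leaving out each library in turn gave between 1426 (without 1b) and 2835 (without 2a) genes for the lines, 5 (without 3c) to 18 for 1,25(OH)2D3 against vehicle, 1 (without 2b) to 29 (without 2a) for osimertinib against vehicle, and 3 (without 4a) to 9 for both agents against osimertinib. For both agents against 1,25(OH)2D3 it gave 0 (without 3c) to 11, and for the interaction 0 to 1 (without 3b).

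Log2 fold changes that changed sign all belonged to genes that were not called. For 1,25(OH)2D3 against vehicle, DUSP6 was at -0.079, ETV4 at -0.11, PHLDA1 at 0.0071 and SPRY2 at -0.14 with 3a kept in. Without the letter a libraries DUSP6 was at -0.066, ETV4 at -0.28 and SPRY2 at -0.13. With the replicate block ETV4 was at -0.041 and SPRY2 at -0.036, and in the 11 libraries with the block ETV4 was at -0.071, PHLDA1 at 0.0047 and SPRY2 at -0.11. Leaving out 1 library gave ranges of -0.066 to 0.97 for DUSP6, -0.13 to 0.14 for SPRY2, -0.54 to 0.98 for SPRY4, -0.20 to 0.027 for SPRED1, -0.28 to 0.38 for ETV4 and -0.32 to 0.036 for PHLDA1.

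For both agents against osimertinib, PHLDA1 was at 0.0067 with all 14 libraries in one fit, ETV5 at -0.00016 without the filter, and SPRED1 at -0.013 and SPRED2 at -0.17 without the letter a libraries. Leaving out 1 library gave -0.029 to 0.67 for DUSP5, -0.062 to 0.60 for DUSP6, -0.56 to 0.28 for SPRY4, -0.28 to 0.29 for SPRED1, -0.14 to 0.48 for SPRED2, -0.56 to 0.021 for ETV4, -0.32 to 0.33 for ETV5 and -0.56 to 0.24 for PHLDA1. For the interaction, 3a kept in gave 0.23 for DUSP6, 0.20 for SPRY4 and -0.0040 for PHLDA1, and leaving out the letter a libraries 0.28, 0.37 and -0.11. The replicate block gave -0.084 for DUSP5, 0.31 for SPRY4 and -0.065 for PHLDA1. Leaving out 1 library gave -0.26 to 0.43 for DUSP5, -0.83 to 0.21 for DUSP6, -1.10 to 0.43 for SPRY4, -0.20 to 0.36 for SPRED1 and -0.42 to 0.39 for PHLDA1.

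In H1975–OR against H1975, DUSP6 was at 0.19 without the letter a library and between -0.83 and 0.19 over single libraries left out. For osimertinib against vehicle, ETV5 lay between -0.46 and 0.20.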

Other observations

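EGR1, an immediate early transcription factor gene of the pathway, and PHLDA2, a relative of PHLDA1, were singled out after their values were seen. EGR1 held between 6 and 38 counts per library in vehicle-treated H1975–OR, between 1 and 4 with osimertinib and between 0 and 2 with both agents. PHLDA2 was at 22.8 and 28.0 CPM in Samples 2b and 2c and at 5.12 CPM in 2a, and between 1.02 and 4.95 CPM with osimertinib. Neither gene was called in either osimertinib comparison.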
